A study of Mus musculus with 10 samples.

Results

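The core circadian clock loop was described here through its 10 transcription factors and repressors, Arntl, Clock, Npas2, Per1, Per2, Per3, Cry1, Cry2, Nr1d1 and Nr1d2, which were picked by gene name and make up 10 of the 45707 rows of the expression table. Bulk RNA sequencing of the jejunum covered 10 mice, 5 of the Vil-Cre and 5 of the Vil-Cre:NDI1 genotype, and each library is named below by its genotype and replicate number. Vil-Cre mice carry a Cre recombinase driven by the villin promoter, which is active in the intestinal epithelium, and Vil-Cre:NDI1 mice carry the same Cre together with a lox-stop-lox allele of NDI1, the single-subunit NADH dehydrogenase of yeast, at the ROSA26 locus. Cre was therefore present in both groups, and they differed in the NDI1 allele. The methods describe male littermates on standard chow, kept on a 12-h light and 12-h dark cycle, fasted for 16 to 18 h and given water by gavage 1 h before the flushed jejunum was taken. For all procedures on that diet they give an age of 7 to 12 weeks, and the figure legend for NDI1 expression gives a narrower range within it. The clock time at which each mouse was killed is not given in the sources used here, so a difference between genotypes and a difference in the hour of collection cannot be told apart. The whole gut wall was sequenced, whereas NDI1 is restricted to the epithelium. In such bulk tissue, fewer cells of a type and less RNA per cell cannot be told apart.

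The clock is a feedback loop of transcription that runs in almost every cell with a period of about a day. The proteins of Arntl (BMAL1) and Clock, or of its relative Npas2, bind E-boxes as a pair and activate the Per and Cry genes, whose proteins return to the nucleus and repress that same pair. In a second arm the pair activates Nr1d1 and Nr1d2 (REV-ERB alpha and beta), nuclear receptors that repress Arntl through an element they share with the activating ROR receptors. Transcripts of Arntl and Npas2 therefore peak at about the opposite time of day from those of Nr1d1, Nr1d2 and the Per genes, with Cry1 later than the rest of the repressors. In the intestine the clock is known to follow feeding as well as light.

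The sequence elements of the loop stand in the promoter windows of several of these genes, which are shown because the loop is known to act through such elements. RefSeq windows running from 250 bases before to 50 bases after a transcript start (GRCm38.p6) were found for 9 of the 10 genes, 13 windows in all, and Per2 was not matched. Capitals mark the element, letters run 5′ to 3′ along the gene's own strand, and both strands were searched.
Cry1, E-prime box and E-box, chr10:85185095-85185147, minus strand: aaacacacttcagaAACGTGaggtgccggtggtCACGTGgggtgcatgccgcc
Per1, E-box, chr11:69098769-69098802, plus strand: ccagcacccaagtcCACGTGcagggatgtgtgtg
Cry2, E-prime box, chr2:92434216-92434249, minus strand: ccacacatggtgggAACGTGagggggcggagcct
Nr1d1, E-prime box, chr11:98775386-98775419, minus strand: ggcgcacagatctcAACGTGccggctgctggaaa
Per3, both D-boxes, chr4:151044802-151044884, minus strand: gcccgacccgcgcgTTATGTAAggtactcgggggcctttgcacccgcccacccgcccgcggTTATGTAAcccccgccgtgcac
Arntl, ROR response element, chr7:113207528-113207556, plus strand: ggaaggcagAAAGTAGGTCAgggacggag

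The canonical E-box, CACGTG, was present in 7.15% of the 32851 mouse windows of this length and in 2 of the 13 member windows, from Cry1 and Per1. In Cry1 it lay at positions -60 to -55 counted from the start, and in Per1 at positions -166 to -161 from a start inside the gene's span. The E-prime box, CACGTT or AACGTG on the other strand, occurred in 4.69% of windows and in 3 of the 13 member windows, from Cry1, Cry2 and Nr1d1. The RefSeq starts behind the Cry2 and Nr1d1 windows lie upstream of the gene ends annotated by GENCODE and were not found among its transcripts. A D-box, the element bound by Dbp, Tef, Hlf and the repressor Nfil3, was searched as TTATGTAA or TTACGTAA and was found in 1.06% of windows. Among the members it occurred in 1 of the 13 windows, from Per3, at 2 places. The ROR response element was held by 0.384% of windows and by 1 of the 13 member windows, from Arntl, at 27 to 37 bases after its start. These matches are letters in a window and were not tied to binding in the jejunum.

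NDI1 first served as the check of the labels. Its transcript was counted at 982, 1371, 2575, 1394 and 1511 normalized counts in Vil-Cre:NDI1 mice 1 to 5, and at 0 in every Vil-Cre mouse but Vil-Cre 3, which held 1 read. Libraries held 10145705 to 11648074 reads on genes in Vil-Cre and 10313793 to 12371530 in Vil-Cre:NDI1 mice, and the size factors that scale them differed by at most 1.29-fold. The members were measured with between 71 reads (Per3 in Vil-Cre 5) and 2115 reads (Nr1d1 in Vil-Cre:NDI1 5) per mouse, and all 10 passed the filter of at least 10 normalized counts in at least 5 mice. Every list of epithelial markers, from enterocyte to Paneth, goblet and enteroendocrine cells, was expressed in these libraries.

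Per length of exon, Nr1d1 was the most abundant member and Per3 the least. Nr1d1 reached 465 ± 151 normalized counts per kilobase of exon (SD, n = 10 mice) and stood above Per1, at 139 ± 24.8, in 10 of 10 mice. Below these, Nr1d2 had 113 ± 34.4, Npas2 95.9 ± 28.0, Per2 84.4 ± 31.3 and Cry2 65.7 ± 11.7 normalized counts per kilobase. Clock followed with 59.6 ± 7.29, Cry1 with 55.7 ± 8.46, Arntl with 31.1 ± 14.9 and Per3 with 21.5 ± 10.4 on the same scale. Apart from the step from Nr1d1 to Per1, neighbours in this order traded places in some mice: each stood above the next in 6 to 9 of 10 mice. On average in these mice, Clock stood above Arntl per length, at 59.6 against 39.7 in Vil-Cre and 59.5 against 22.4 in Vil-Cre:NDI1 mice. Npas2, known for taking the place of Clock in forebrain and other tissues, exceeded both. The hour of collection is not known, so this order describes these libraries only.

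**Figure D1:**
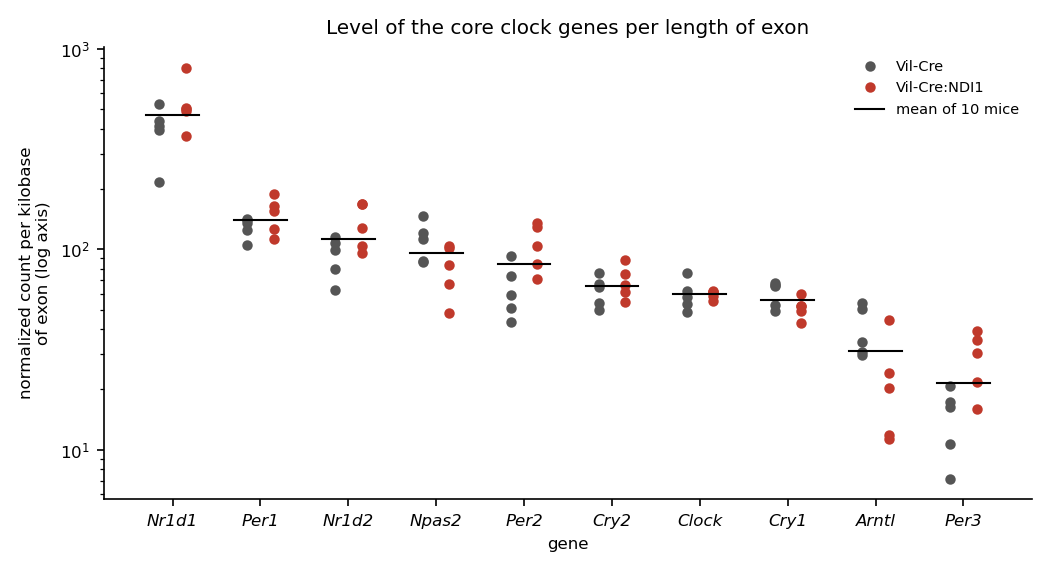
Normalized count per kilobase of exon (log axis) for the 10 members, with 5 Vil-Cre mice in grey, 5 Vil-Cre:NDI1 mice in red and the mean of 10 mice as a bar. Nr1d1 at 465 stands apart at the top, and the members from Per1 to Cry1 overlap with their neighbours.

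Some members share their locus with another gene, and whether the counting used strand is not given in the sources used here. Nr1d1 and Thra, a thyroid hormone receptor on the opposite strand, overlap by 1075 bases, of which 263 are exonic in both, and Thra was at 1471 ± 191 normalized counts in Vil-Cre and 1402 ± 193 in Vil-Cre:NDI1 mice (SD, n = 5 each). Reads from the shared stretch cannot be assigned to either gene without strand. The transcript D930015M05Rik runs opposite Cry2, shares 295 exonic bases with it and averaged 9.02 normalized counts. Per3 lies on the same strand within Camta1 but shares no exonic base with it. Arntl has an antisense partner, Gm45355, across 2394 bases, for which no value was used here. Clock spans the processed pseudogene Ube2n-ps1, at 108 normalized counts, and Gm43658, and Npas2 spans the pseudogenes Gm20428 and Gm3617, all 3 of these below 4 normalized counts on average.

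No member of the loop passed the test between genotypes. Of the 10, 0 were called by limma on log2(value + 1) at a Benjamini-Hochberg adjusted p under 0.05 over all 14301 genes tested, against 0.00699% of all genes (1 gene, NDI1), and the members' lowest adjusted p was 0.998. DESeq2 and edgeR on the recovered reads called 0 as well. The lowest adjusted p of a member by DESeq2 was 0.148 (Per3), and 0.135 (Cry1) on the 8 libraries whose reads could be checked. At an unadjusted limma p under 0.05 there were 4 members, Arntl, Per2, Per3 and Nr1d2, against 4.24% of all genes, and 5 members by DESeq2 and 4 by edgeR. The fitted difference was positive for 7 members and negative for 3, with a median log2 fold change (Vil-Cre:NDI1 minus Vil-Cre) of 0.17 beside 0.01 over all genes tested. The median size of the difference, sign left aside, was 0.46 on the log2 scale for the members and 0.12 for all genes. In no member were the 2 genotypes separated without overlap, as they were in 0.699% of genes. The members were chosen with earlier results of these data known, so these counts describe them and are no independent test.

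**Figure D2:**
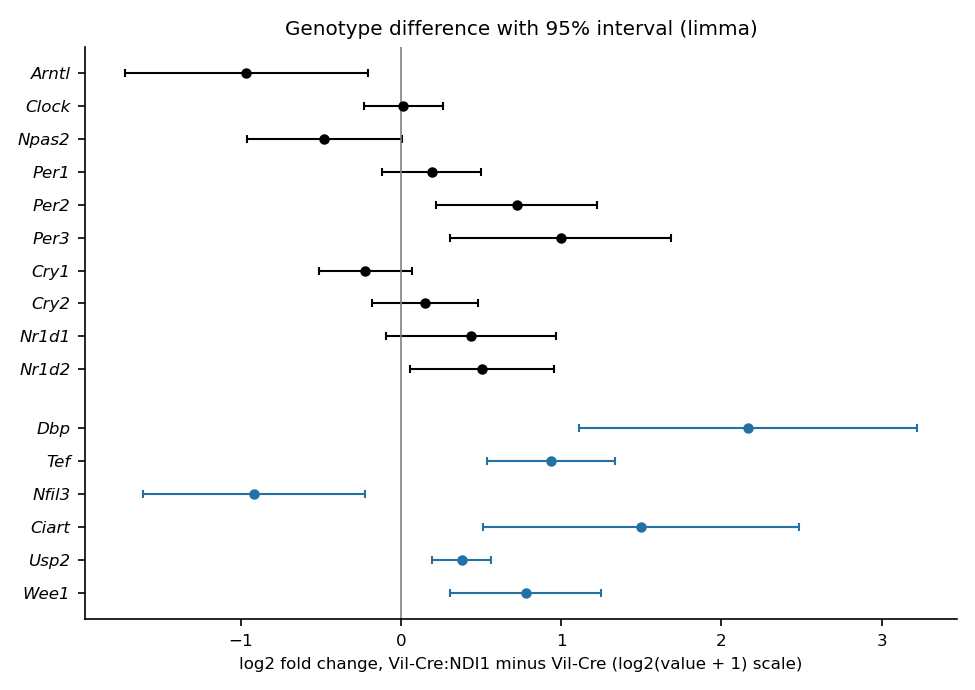
Log2 fold change (Vil-Cre:NDI1 minus Vil-Cre, on the log2(value + 1) scale) with its 95% interval from limma for the 10 members in black and, in blue, the 6 other clock pathway genes named in the text. Arntl sits at -0.97 and Per3 at 1.00, and Clock lies at 0.01.

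Arntl, the activator without which the loop stops, was at 223, 231, 258, 378 and 404 normalized counts in Vil-Cre mice 1 to 5 and at 182, 152, 332, 85.2 and 89.2 in Vil-Cre:NDI1 mice 1 to 5. All Vil-Cre:NDI1 mice but the third stood below every Vil-Cre mouse, and Vil-Cre:NDI1 3 stood among the highest, so the groups overlapped. The means were 299 ± 85.6 and 168 ± 101 (SD, n = 5 each), a log2 fold change of -0.97 (SE 0.35, 95% interval -1.72 to -0.21). The limma p was 0.0169 before adjustment, and the two-sided exact permutation test gave p = 0.0556, where the smallest p that 5 against 5 mice allow is 0.00794.

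Npas2, the partner that can stand in for Clock, was at 414, 536, 419, 706 and 580 normalized counts in Vil-Cre mice and at 499, 398, 488, 322 and 231 in Vil-Cre:NDI1 mice. Its highest levels were in Vil-Cre 4 and 5 and its lowest in Vil-Cre:NDI1 4 and 5, the same mice that held the extremes of Arntl. The log2 fold change of -0.48 (SE 0.22, 95% interval -0.96 to 0.01) left an exact permutation p of 0.103. Clock itself, whose protein is the usual partner of BMAL1, was at 729, 850, 793, 1046 and 670.1 normalized counts in Vil-Cre and 799, 754, 839, 842 and 851 in Vil-Cre:NDI1 mice. The Vil-Cre:NDI1 mice lay within the range of the Vil-Cre mice, and the mean levels were 818 ± 145 and 817 ± 40.5. The 95% interval of the Clock difference ran from -0.23 to 0.26 on the log2 scale.

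Among the repressors, Per2 and Per3 were higher in the mean of the Vil-Cre:NDI1 mice. Per3 was at 200.0, 158, 165, 102 and 69.0 normalized counts in Vil-Cre mice 1 to 5 and at 209, 292, 154, 374 and 338 in Vil-Cre:NDI1 mice 1 to 5. Only Vil-Cre:NDI1 3 fell inside the Vil-Cre range. The means were 139 ± 52.5 and 273 ± 91.0, a log2 fold change of 1.00 (SE 0.31, 95% interval 0.31 to 1.69), with an unadjusted limma p of 0.00852 and an exact permutation p of 0.0397.

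Per2, the repressor closest to Per1 in sequence and function, was at 542, 431, 348, 255 and 297 normalized counts in Vil-Cre mice and at 492, 611, 416, 757 and 795 in Vil-Cre:NDI1 mice. Here Vil-Cre:NDI1 1 and 3 fell within the Vil-Cre range and the other Vil-Cre:NDI1 mice lay above it. The log2 fold change was 0.72 (SE 0.23, 95% interval 0.22 to 1.22), with an unadjusted limma p of 0.00878 and an exact permutation p of 0.0397.

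Per1, known besides its clock rhythm for a rapid response to hormones and feeding signals, was at 787, 594, 761, 794 and 705 normalized counts in Vil-Cre and at 710, 1063, 870.5, 636 and 925 in Vil-Cre:NDI1 mice. The order of the mice was not that of Per2 and Per3: Vil-Cre:NDI1 4, the highest mouse for Per3, was the lowest of its group for Per1. The log2 fold change of Per1 was 0.19, with a 95% interval from -0.12 to 0.50.

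The cryptochromes bind and block the activator pair directly. Cry1 was at 221, 219, 175, 164 and 226 normalized counts in Vil-Cre and at 174, 144, 165, 174 and 200 in Vil-Cre:NDI1 mice, a log2 fold change of -0.22 (95% interval -0.51 to 0.07) and an exact permutation p of 0.0952. Cry2 was at 478, 340, 411, 424 and 314 normalized counts in Vil-Cre and at 386, 558, 420, 347 and 474 in Vil-Cre:NDI1 mice. The difference for Cry2 was 0.15 on the log2 scale (95% interval -0.18 to 0.48), and both groups covered most of the same range.

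The REV-ERB genes shared their lowest mouse, Vil-Cre 5, and their highest, Vil-Cre:NDI1 5. Nr1d2 was at 579, 626, 537, 433 and 339 normalized counts in Vil-Cre and at 559, 688, 516, 911 and 913 in Vil-Cre:NDI1 mice, so that Vil-Cre:NDI1 4 and 5 were alike and far above the rest. The log2 fold change of Nr1d2 was 0.51 (SE 0.21, 95% interval 0.05 to 0.96), with an unadjusted limma p of 0.0313 and an exact permutation p of 0.0794. Nr1d1 was at 1206, 1345, 1625, 1264 and 670.1 normalized counts in Vil-Cre and at 1128, 1548, 1552, 1501 and 2483 in Vil-Cre:NDI1 mice. Apart from the low Vil-Cre 5 and the high Vil-Cre:NDI1 5, the mice of both genotypes shared the range between 1128 and 1625. The log2 fold change of Nr1d1 was 0.44 (SE 0.24, 95% interval -0.10 to 0.97), with an exact permutation p of 0.183.

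**Figure D3:**
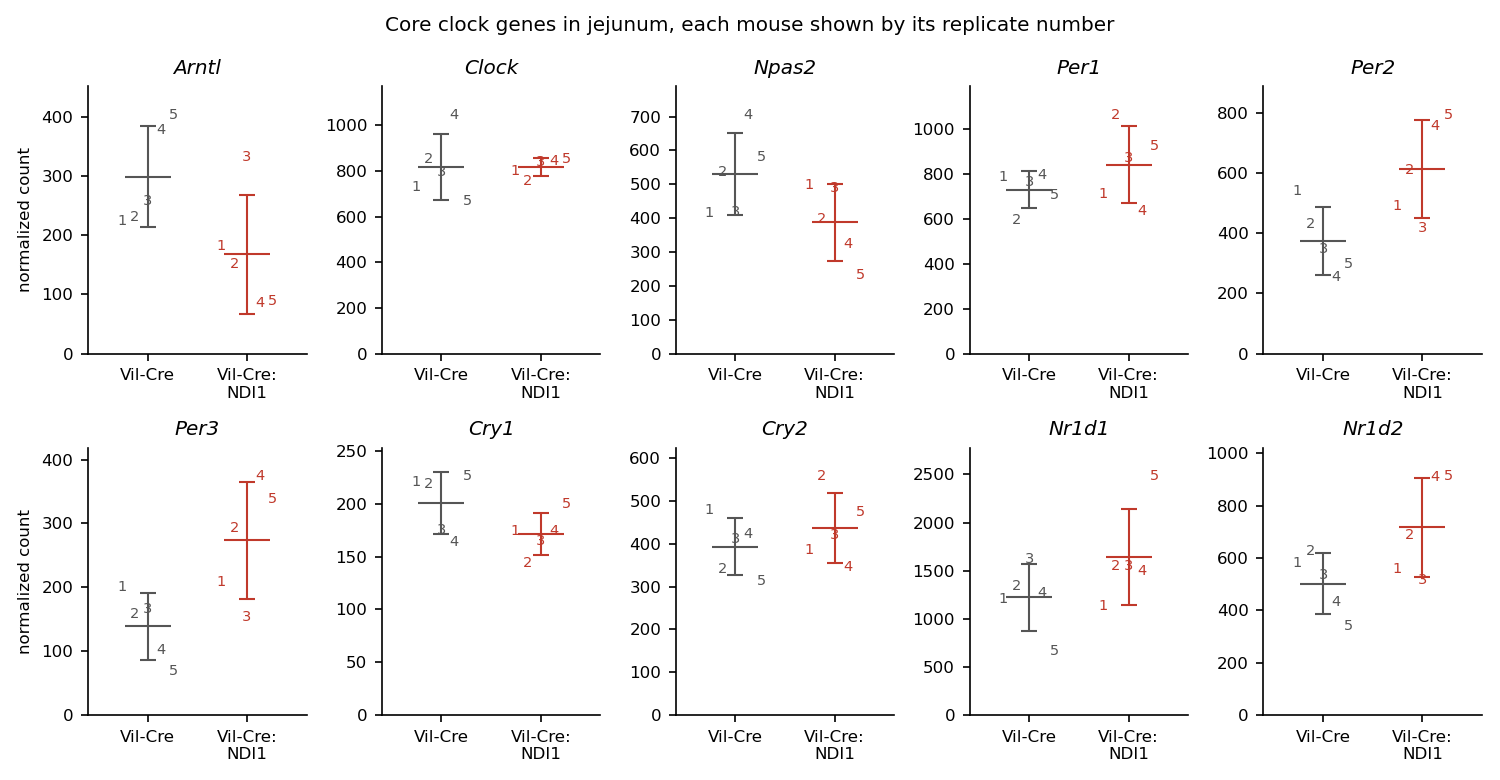
Normalized count of each member (vertical axis from 0) in the 5 Vil-Cre mice (grey) and 5 Vil-Cre:NDI1 mice (red), each mouse drawn as its replicate number, with the mean and SD. For Arntl, Vil-Cre:NDI1 4 and 5 lie at 85.2 and 89.2 and Vil-Cre:NDI1 3 at 332, and the same 3 mice hold the extremes of the group for Per2, Per3 and Nr1d2.

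Differences between mice of the same genotype were not alike across the loop. The SD of the log2 level within genotype was 0.64 for Arntl, 0.57 for Per3, 0.45 for Nr1d1, 0.41 for Per2, 0.40 for Npas2 and 0.37 for Nr1d2, beside a median of 0.29 over all genes tested. Among genes with a mean level within 2-fold of each, these 6 stood between the 87.0 and the 94.3 percentile of spread. Cry2 and Per1 had an SD of 0.26 and 0.24, at percentiles 65.9 and 69.7 among genes of like level. Cry1 and Clock had an SD of 0.19 and 0.18, at percentiles 28.5 and 48.8. From the lowest to the highest of the 10 mice, Per3 spanned 5.43-fold, Arntl 4.74-fold and Nr1d1 3.70-fold, whereas Clock spanned 1.56-fold and Cry1 1.57-fold.

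The mice that were high for Arntl were low for Nr1d2, Per3 and Per2, in both genotypes. Ranked from low to high Arntl, the mice ran Vil-Cre:NDI1 4, 5, 2 and 1, then Vil-Cre 1, 2 and 3, then Vil-Cre:NDI1 3 and last Vil-Cre 4 and 5, and Per3 gave almost exactly the reverse order. Across the 10 mice Arntl had a Pearson r of -0.95 with Nr1d2, -0.94 with Per3 and -0.94 with Per2, with Spearman rho of -0.94, -0.99 and -0.95. Among the 14300 other genes tested, these 3 members had the lowest r with Arntl of all. At an r of at least 0.8 in size there were 4 of the 9 other members (Npas2 at 0.87 being the fourth), against 1.36% of the other genes.

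Expressed as a ratio within a mouse, Nr1d2 stood at 2.59, 2.71, 2.08, 1.14 and 0.839 times Arntl in Vil-Cre mice 1 to 5 and at 3.06, 4.52, 1.55, 10.7 and 10.2 times in Vil-Cre:NDI1 mice 1 to 5. The ratio thus ran from 0.839 in Vil-Cre 5 to above 10 in Vil-Cre:NDI1 4 and 5. Counts in these ratios were not corrected for gene length, so a ratio of 1 does not mark equal levels. The Per2 to Arntl ratio ran from 0.674 in Vil-Cre 4 to 8.91 in Vil-Cre:NDI1 5, and Vil-Cre:NDI1 3, at 1.25, again lay among the Vil-Cre mice.

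**Figure D4:**
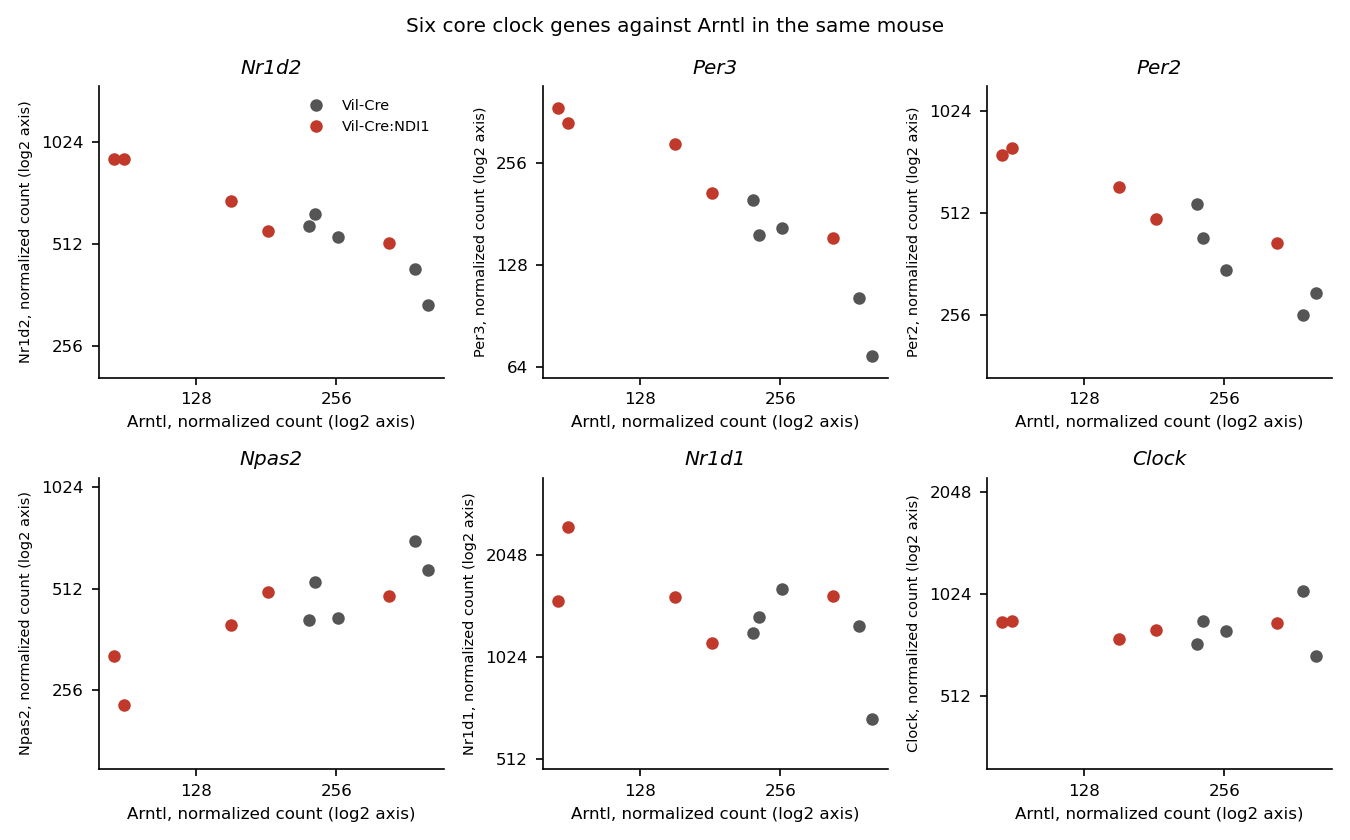
Normalized counts of Nr1d2, Per3, Per2, Npas2, Nr1d1 and Clock against Arntl in the same mouse (log2 axes of equal span in each panel; Vil-Cre grey, Vil-Cre:NDI1 red). Nr1d2, Per3 and Per2 are lower where Arntl is higher across both genotypes (r -0.95, -0.94 and -0.94), Npas2 is higher with it (r 0.87), and Clock is level (r -0.03).

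All 45 pairs of members were compared in this way, by a two-sided permutation test with 100000 resamples on log2(value + 1) and a Benjamini-Hochberg adjustment over the 45 pairs. Because the genes were chosen with earlier results known and the adjustment spans these pairs alone, the p-values describe the members and carry no independent weight. With that limit, 12 pairs had an adjusted p under 0.05, of which 6 were positive and 6 negative, and 11 of them also passed by Spearman's rho. The 12 kept their sign without the 2 mice farthest from the median of the first gene.

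The pairs fell into an activator side, Arntl and Npas2, and a repressor side, Per2, Per3 and Nr1d2. On the repressor side r was 0.96 for Per3 with Nr1d2 (rho 0.90, adjusted p 0.000675 by permutation, r 0.91 without the 2 farthest mice), 0.93 for Per2 with Per3 (rho 0.93, adjusted p 0.00135 by permutation, r 0.93) and 0.92 for Per2 with Nr1d2 (rho 0.94, adjusted p 0.00157 by permutation, r 0.90). Arntl with Npas2 had an r of 0.87 (rho 0.84, adjusted p 0.00478 by permutation, r 0.70 without the 2 farthest mice). Every pair across the sides was negative. For Arntl the adjusted permutation p was 0.000675 with Nr1d2 (raw 3e-05), 0.00135 with Per3 (raw 0.0001) and 0.00135 with Per2 (raw 0.00015), and r was -0.87, -0.93 and -0.88 without the 2 farthest mice, Vil-Cre:NDI1 4 and 5. Npas2 had an r of -0.88 with Per2, -0.85 with Nr1d2 and -0.83 with Per3 (rho -0.89, -0.83 and -0.88; adjusted permutation p 0.00373, 0.0108 and 0.0135; r -0.79, -0.82 and -0.86 without Vil-Cre:NDI1 5 and Vil-Cre 4).

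Because a difference in mean between genotypes could add to a correlation, the mean of each genotype was also taken out before correlating. After that centring 10 of the 12 pairs still had an adjusted p under 0.05 by permutation, among them Arntl with Nr1d2 (r -0.92), with Per3 (r -0.89) and with Per2 (r -0.89). The opposition of Arntl to the 3 repressors was thus present among mice of the same genotype. Npas2 with Per3 missed the threshold after centring (r -0.75, adjusted p 0.0583 by permutation), and Npas2 with Nr1d2 lay close to it (r -0.77, adjusted p 0.0477 by permutation). The centred values were permuted over all 10 mice without allowing for the means removed. These p-values therefore tend to be too small, and the count of 10 pairs is not secure at the threshold.

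Nr1d1 and Nr1d2 encode closely related receptors, but their levels were tied less closely than those of Nr1d2 and Per3. Their r was 0.79 (adjusted p 0.0382 by permutation), the Spearman rho was 0.48 (adjusted p 0.501 by permutation), and without Vil-Cre 5 and Vil-Cre:NDI1 5 the r fell to 0.30, so the relation rests on those mice. The pair also missed the threshold without Vil-Cre 4, Vil-Cre 5, Vil-Cre:NDI1 2 or Vil-Cre:NDI1 5 alone, with r from 0.61 to 0.81. It missed it as well after centring (r 0.71) and with equal library totals (r 0.73). Nr1d1 with Arntl had an r of -0.63 (adjusted p 0.143 by permutation).

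Per1 and Cry2 formed a pair of their own. Their r was 0.88 (rho 0.88, adjusted p 0.00485 by permutation, 0.77 without Vil-Cre:NDI1 2 and Vil-Cre 2) and 0.87 after centring, and neither had another partner past the threshold. The r of Per1 with Per2 was 0.21 and with Arntl -0.10. Clock and Cry1 were in none of the 12 pairs, and in these 2 genes the spread between mice was also the smallest.

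**Figure D5:**
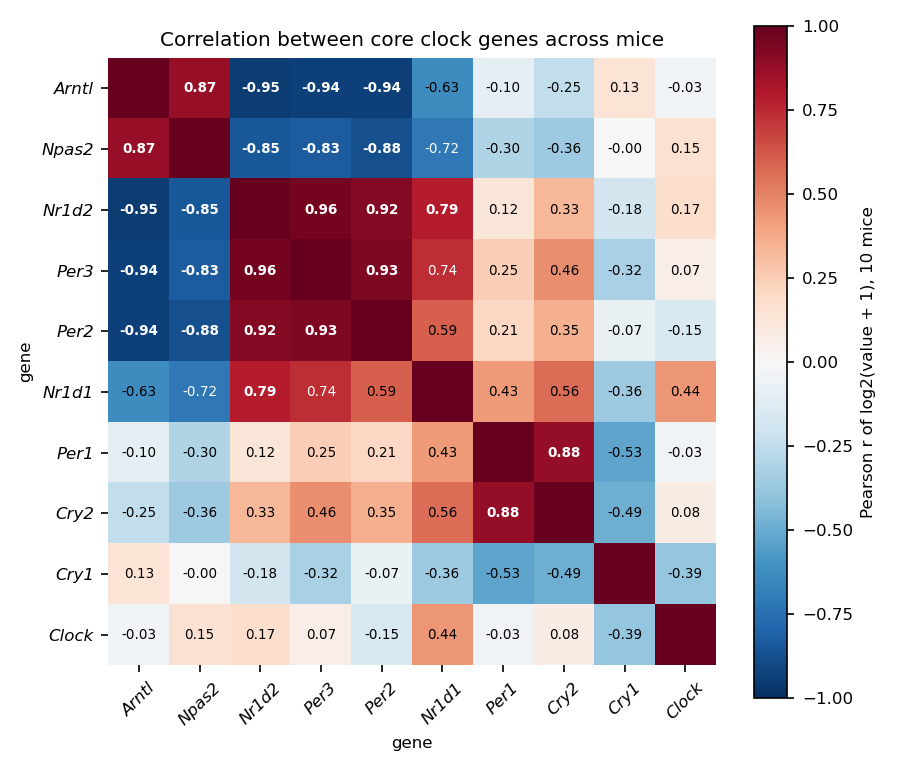
Pearson r of log2(value + 1) over 10 mice for every pair of members, on a scale from -1 (blue) to 1 (red), with pairs of adjusted p under 0.05 in bold. Arntl and Npas2 form a positive pair that is negative against Nr1d2, Per3 and Per2, and Per1 with Cry2 stands apart at 0.88.

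Set beside all other genes, the partners of these members were near the top of the table but not always alone there. With Per3, no gene of 14300 had a lower r than Arntl, and 1 gene had a higher r than Nr1d2. With Nr1d2, again no gene had a lower r than Arntl, and 4 genes had a higher r than Per3. With Npas2, 12 genes had a higher r than Arntl and 23 a lower r than Per2. For Per1, 11 genes had a higher r than Cry2, and for Nr1d1, 277 genes had a higher r than Nr1d2.

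The genes outside the loop most like Arntl in these mice were St5 (r 0.94), Grn, which encodes progranulin (0.92), Nub1 (0.91), Tmem252 (0.90) and Nfil3, a repressor at D-boxes (0.89), by Pearson r of log2(value + 1) over 10 mice. The lowest r after the 3 members belonged to Anxa2, a membrane-binding annexin (-0.93), Cib1 (-0.93), the pseudogene Tmem181b-ps (-0.93), Clic1 (-0.93) and Gnai3, a G protein alpha subunit (-0.92). After centring on genotype all 10 kept an r of at least 0.81 in size. The genes were ranked over the same 10 libraries and share their scaling and depth, and the r values are given as a description.

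Of 24 other genes of the clock pathway, 21 passed the filter and 0 were called by limma, against 0.00699% of all genes. The unadjusted p was under 0.05 for 6 of them, against 4.24% of all genes, of which 5 were higher in Vil-Cre:NDI1 mice and 1 lower, and the median log2 fold change over the 21 genes was 0.09. Dbp, a D-box activator driven by the BMAL1 pair, was at 237, 118, 134, 51.6 and 48.6 normalized counts in Vil-Cre and at 291, 567, 208, 644 and 816 in Vil-Cre:NDI1 mice. The groups of Dbp overlapped only through Vil-Cre:NDI1 3, below Vil-Cre 1, and the log2 fold change was 2.17 (SE 0.48, limma adjusted p 0.816). Its r with Arntl was -0.91.

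Tef, of the same family as Dbp, was above every Vil-Cre mouse in all 5 Vil-Cre:NDI1 mice, with 980.2 to 1424 against 428 to 918 normalized counts and a log2 fold change of 0.94 (SE 0.18, limma adjusted p 0.465). Usp2, a deubiquitinase with clock-driven expression, likewise did not overlap, as was so for 0.699% of all genes tested, with 852 to 1052 against 668 to 782 normalized counts and a log2 fold change of 0.38 (SE 0.08, limma adjusted p 0.816). DESeq2 on the recovered reads called Tef (adjusted p 0.00142), Usp2 (0.00696) and Dbp (0.0461), whereas over all alternatives the adjusted p reached 1.00 for each of them. Ciart, a repressor of the BMAL1 pair, had a log2 fold change of 1.50 (SE 0.45, limma adjusted p 0.998) and Wee1, a mitotic kinase with a clock-driven promoter, of 0.78 (SE 0.21). Ciart was measured with only 5 to 71 reads per mouse, the lowest in Vil-Cre 4. Its log2 fold change was 1.08 without that mouse and 1.17 with a pseudocount of 8. Nfil3, which opposes Dbp and Tef, was the gene lower in Vil-Cre:NDI1 mice, at -0.92 (SE 0.32). Of the 21 tested pathway genes, 2 had an r with Arntl of at least 0.8 in size, Dbp and Nfil3, against 1.36% of other genes. The r with Arntl was -0.77 for Tef, -0.75 for Usp2, -0.72 for Ciart and -0.52 for Wee1. After centring on genotype it was -0.55, -0.51, -0.49 and -0.04 for these genes.

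Rora, a receptor that competes with the REV-ERBs at Arntl, was at 56.7 ± 26.4 and 54.1 ± 30.5 normalized counts in Vil-Cre and Vil-Cre:NDI1 mice (SD, n = 5 each), and the ranges of the groups overlapped, while Rorb was under the filter. Csnk1d, Csnk1e, Btrc and Fbxw11, whose products mark PER proteins for destruction, had log2 fold changes between -0.14 and 0.09. Arntl2, the relative of Arntl, and Bhlhe41 were under the filter too. Bhlhe40 passed it, at 868 ± 90.6 normalized counts in Vil-Cre and 845 ± 154 in Vil-Cre:NDI1 mice, a log2 fold change of -0.05.

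Markers of other cells and signals were summed beside these levels. No list of cell type markers had an exact permutation p under 0.05 between genotypes. The nearest was the goblet cell list, all 7 of whose genes had a lower fitted level in Vil-Cre:NDI1 mice (summed level 85646 to 113269 against 66904 to 98654 normalized counts, exact permutation p = 0.0635). The 10 enterocyte markers all had a higher fitted level (351756 to 599000 against 517939 to 692973, exact permutation p = 0.119), with the lowest sum in Vil-Cre 5 and the highest in Vil-Cre:NDI1 5, the mice that were also the lowest and highest for Nr1d1. The 6 fibroblast markers all had a lower fitted level (2413 to 3312 against 2252 to 2894, exact permutation p = 0.119), 1 of them at an unadjusted limma p under 0.05. The hepatocyte list summed to 71.8 to 1623 normalized counts in Vil-Cre mice, against 62.7 to 262 with NDI1 (exact permutation p = 0.0952). Of its 6 tested genes, 4 had an unadjusted limma p under 0.05, all lower, against 4.24% of all genes. Genes responsive to glucocorticoids, a hormonal input to Per1 and to peripheral clocks, had 0 of 8 members called by limma and 0 at an unadjusted p under 0.05. Of 10 immediate early genes 9 passed the filter, 0 were called by limma and 1 had an unadjusted p under 0.05, with a lower level in Vil-Cre:NDI1 mice. Over all genes tested, 0.00699% were called by limma and 4.24% had an unadjusted p under 0.05. The part of these cell types and signals in the levels of the clock genes was not tested.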

How the data were processed

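Single-end reads were trimmed (trimGalore!), mapped by STAR onto GRCm38 plus NDI1, assigned to genes by Salmon and scaled with DESeq2 size factors by the authors. The deposited signal per gene and mouse is called the normalized count here. All non-zero values within a library were whole multiples of its smallest value, so reads were recovered (tolerance 0.1 read; 100% whole). In 8 of 10 libraries the recovery could be checked, and in Vil-Cre 3 and 4 the step was too near 1.

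Genes of at least 10 in at least 5 mice (14301) were tested with limma 3.58.1 (R 4.3.3) on log2(value + 1) with a variance trend. Fold changes on this scale understate those of low genes. Single genes also had a two-sided exact permutation test. On the recovered reads, edgeR 4.0.16 and DESeq2 1.42.0 with a local fit, the test of the study's methods, served as alternatives. Per length, exon unions of GENCODE (GRCm38) were used. Other alternatives were pseudocounts of 0.1 and 8, other filters and scalings, array weights, a replicate block and leaving out each mouse. P-values between genotypes set a difference against the spread between the mice sequenced, and those of pairs refer to a correlation across these mice.

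Members and lists were chosen with earlier results of these data known. The text names every member, NDI1, other pathway genes with an unadjusted p under 0.05, the 5 non-members highest and the 5 lowest in r with Arntl, and genes overlapping a member. Rora, Rorb, Arntl2, Bhlhe40, Bhlhe41 and the PER degradation genes were named after their values were seen. Single values of some listed genes are not reported here.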

Additional observations from a re-analysis of the deposited data

Results flagged for a closer look

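Over 32 sets of 5 mice, each member and each of the named clock pathway genes in either genotype, no mouse stood apart by Dixon's criterion at the 95% level (a gap to its neighbour above 0.71 of the range), where chance would set apart about 1.6.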

How the results depend on the processing

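No member was called under any alternative run, and the median log2 fold change of the members stayed positive, between 0.08 and 0.26, both ends of which came from leaving out a mouse. The number of members at an unadjusted p under 0.05 ran from 3 to 6 when a mouse was left out, and was 2 with edgeR on the 8 libraries whose reads could be checked. The genes changed as well. Per3 was among them under every alternative. Arntl was not among them with array weights, or with DESeq2 or edgeR on the 8 libraries, where Cry1 was. The fitted sign held for 9 members. That of Clock, 0.01 on the log2 scale, became -0.0482 with equal library totals, -0.00972 with quantile normalization, -0.00102 with DESeq2, -0.0111 with edgeR, and ran from -0.0530 to 0.108 with a mouse left out. Equal totals moved the median of all genes from 0.01 to -0.06.

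The other clock pathway genes had 0 calls by limma and edgeR and 3 by DESeq2 on all reads (Tef, Usp2 and Dbp), and DESeq2 on the 8 libraries gave 2 (Tef and Wee1). Over all genes limma called 1 and DESeq2 31, or 276 on the 8 libraries, where edgeR called 1. Without Vil-Cre:NDI1 5 limma called 3 genes and without Vil-Cre:NDI1 1 it called 2. With at least 50 in 5 mice, and with array weights, it called 2. The cause was not tested.

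Correlated pairs numbered 10 to 13 under the alternatives and 11 to 13 with a mouse left out. By longest transcript instead of exon union, Per2 and Cry2 traded places in the order by length and 8 of 10 places held.

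Replicate numbers did not pair the mice: the deviations of same-numbered mice correlated between -0.12 and 0.14. With the replicate block limma called 1 gene, 0 members and 0 other clock pathway genes, and the median of the members was 0.17. The members had at least 71 reads in every mouse. The effects of depth, of the number of mice and of the hour of collection on the calls were not tested.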
